A study of Homo sapiens with 8 samples.

Results

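Wnt and Notch are signalling routes between neighbouring cells that decide cell fate and tissue repair. A secreted Wnt protein binds a Frizzled receptor, alone or with the co-receptor LRP5 or LRP6. Dishevelled then carries the signal, either to β-catenin, which enters the nucleus and acts through TCF and LEF factors, or to the cytoskeleton without β-catenin. In Notch signalling a Jagged or Delta ligand on a neighbouring cell causes the Notch receptor to be cut, and the freed receptor tail joins RBPJ and a Mastermind protein to switch on HES and HEY genes. Both routes have been described in hepatic stellate cells, the cells that make scar matrix in the injured liver.

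The genes described here are the 54 rows, of 14870 in the table, whose symbol matched a fixed pattern of Wnt and Notch names, 36 of the Wnt route and 18 of the Notch route. The pattern used symbols only and no measured value. Messenger RNA was sequenced from LX-2, an immortal line of human hepatic stellate cells, kept for 72 h in medium with low serum. The first group of 4 cultures received recombinant TGF-β1, the cytokine that activates stellate cells, and 5 µM ML290, a small molecule that activates RXFP1, the receptor of the hormone relaxin. The second group of 4 received TGF-β1 with the solvent DMSO. The TGF-β1 dose is not given in the sources used here, and no culture without TGF-β1 was analysed here, so every difference below is between ML290 and DMSO on top of TGF-β1, in a single line.

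Each gene has 1 value per group, the authors' least-squares mean over 4 cultures on the scale of normalised read counts. No value per culture was used here, so no SD or SE stands beside a mean. The adjusted p from the authors' deposited table is the only measure of error, from a test that is not named in the sources used here. Low values of different genes fell near whole multiples of a common step. If the values are scaled to a fixed total as CPM are, the step corresponds to about 19200000 reads per ML290 library and 21000000 per DMSO library. From these steps the approximate number of reads behind a low mean was computed, summed over the 4 libraries of a group. Of 13 stellate cell markers, 11 had a row (not DES and LRAT), with summed means of 5877 with ML290 and 9538 with DMSO, and 9 were lower and 1 higher per the authors' deposited table. None of 5 hepatocyte markers had a row. A gene without a row was not analysed here, and its level cannot be given. Endothelial markers had rows for 3 of 4 genes (not CDH5), summing to 1.25 with ML290 and 1.96 with DMSO. Leukocyte markers had rows for 2 of 4, CD14 and CD68 but not PTPRC or CD163, summing to 75.3 with ML290 and 40.5 with DMSO. They were called in opposite directions, CD68 higher with means of 71.7 with ML290 and 35.1 with DMSO, and CD14 lower with 3.59 with ML290 and 5.38 with DMSO, per the authors' deposited table. Cholangiocyte markers had rows for 2 of 4, KRT7 and SOX9 but not KRT19 or EPCAM, summing to 43.9 with ML290 and 38.6 with DMSO. They too were called in opposite directions, SOX9 1.19-fold higher and KRT7 1.80-fold lower, per the authors' deposited table. Their part in the results below was not tested. In bulk RNA a change in a few cells and a smaller change in every cell cannot be told apart.

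With the false discovery rate set at 0.05, 18 of the 54 genes differed with ML290, which is 33.3%, against 35.1% of all rows, per the authors' deposited table. The share called was therefore near the background, and the count alone says nothing particular about these genes. By direction, 6 were higher, 11.1% against 19.5% of all rows, and 12 were lower, 22.2% against 15.6% of all rows, per the authors' deposited table. Among Wnt genes 4 were higher and 9 lower, and among Notch genes 2 were higher and 3 lower per the authors' deposited table. The median log2 ratio was -0.07 over the Wnt genes and 0.10 over the Notch genes, against 0.02 over all rows. Once Notch genes below a mean level of 1 were left out, theirs was -0.04. Within the Frizzled, HES and HEY families, members were called in opposite directions. Calls depended on level. Of the 30 members with a mean level of at least 10, 13 passed (43.3%), against 44.2% of all rows at that level, and of the 24 under 10, 5 passed (20.8%), against 21.9% of all rows under 10, per the authors' deposited table.

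**Figure D1:**
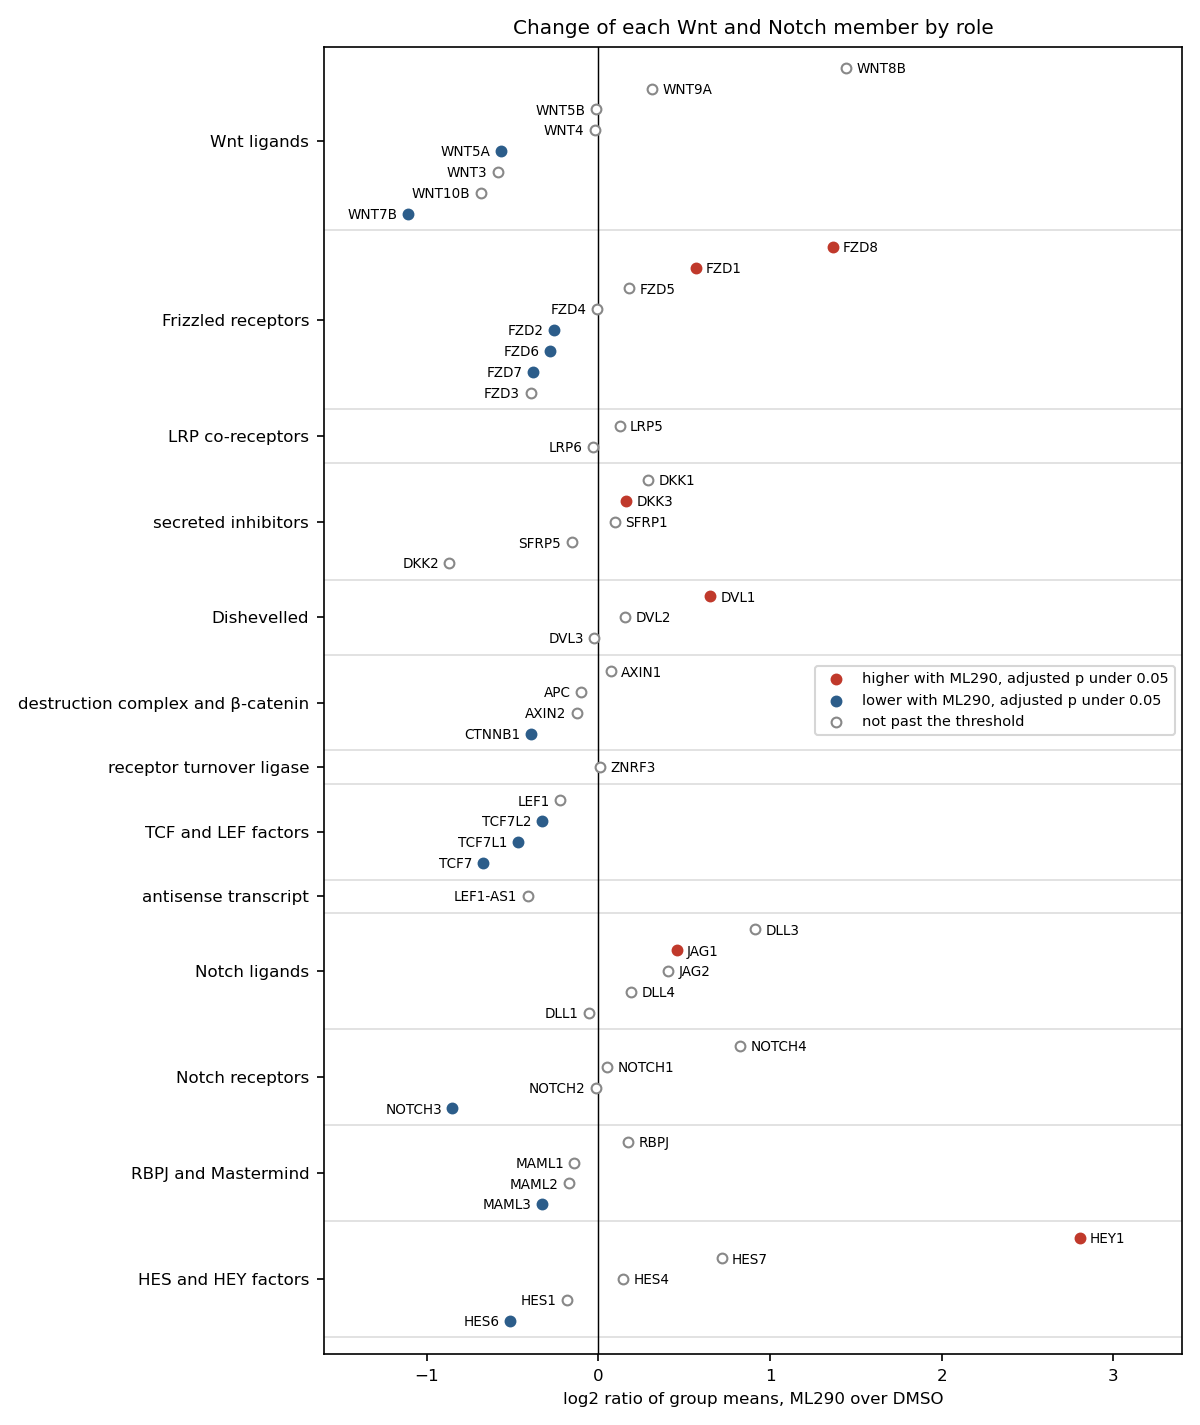
Log2 ratio of the authors' group means, ML290 over DMSO, for each of the 54 genes, grouped by role. Filled red points were higher and filled blue points lower with ML290 at an adjusted p under 0.05, and open points did not pass. HEY1 (2.80) and FZD8 (1.36) lie farthest right among the filled points, and TCF7, TCF7L1 and TCF7L2 all lie left of 0.

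Of 8 Wnt ligands with a row, 2 were called, both lower with ML290, per the authors' deposited table. The share called was below the 35.1% of all rows. Among all rows 15.6% were lower, per the authors' deposited table, and the count among ligands was not tested. WNT5A, a ligand best known for signalling without β-catenin, had a mean of 53.2 with ML290 and 78.9 with DMSO, 1.48-fold lower (FDR-adjusted p = 0.000366) per the authors' deposited table. WNT7B, a ligand that can act through β-catenin, had 0.991 with ML290 and 2.14 with DMSO, 2.16-fold lower (FDR-adjusted p = 0.00532) per the authors' deposited table. The WNT7B means correspond to only about 76 and 179 reads. The other 6 ligands with a row, WNT3, WNT4, WNT5B, WNT8B, WNT9A and WNT10B, did not pass, with FDR-adjusted p between 0.0717 and 0.913 per the authors' deposited table.

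WNT5B, the close relative of WNT5A, had 38.4 with ML290 and 38.8 with DMSO (FDR-adjusted p = 0.889) per the authors' deposited table. WNT10B lay nearest to the threshold among those that did not pass, with 0.846 with ML290 and 1.36 with DMSO (FDR-adjusted p = 0.0717) per the authors' deposited table. WNT8B shows how little a fold says at the floor. It had 0.195 with ML290 and 0.0718 with DMSO, about 15 and 6 reads, a 2.72-fold higher value that did not pass (FDR-adjusted p = 0.251) per the authors' deposited table. Divided by exon length, WNT5A and WNT5B made up nearly all ligand transcripts in both groups. WNT5A held 40.6% of the summed level per kb with ML290 and 49.0% with DMSO, and WNT5B held 50.3% with ML290 and 41.4% with DMSO. WNT5B thus ranked above WNT5A with ML290 and below it with DMSO on the scale per kb, an order that was not tested. WNT5A lies on chromosome 3 from 55465715 to 55490539 and WNT7B on chromosome 22 from 45920362 to 45977129 of GRCh38.

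Frizzled receptors split, with 2 higher, 3 lower and 3 not past the threshold per the authors' deposited table. The share called was 62.5%, against 35.1% of all rows, and was not tested. FZD8 had a mean of 121.0 with ML290 and 47.0 with DMSO, 2.57-fold higher (FDR-adjusted p = 3.55e-07) per the authors' deposited table, the smallest adjusted p of the 54 genes. FZD1 had 53.2 with ML290 and 35.9 with DMSO, 1.48-fold higher (FDR-adjusted p = 0.000185) per the authors' deposited table. Both are seven-pass membrane receptors for Wnt ligands, as are all Frizzled proteins.

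On the lower side, FZD7 had 42.0 with ML290 and 54.8 with DMSO, 1.30-fold lower (FDR-adjusted p = 0.000735) per the authors' deposited table. FZD2, a receptor for WNT5A, had 64.7 with ML290 and 77.5 with DMSO, 1.20-fold lower (FDR-adjusted p = 0.0085) per the authors' deposited table. FZD6 had 18.3 with ML290 and 22.2 with DMSO, 1.22-fold lower (FDR-adjusted p = 0.0414) per the authors' deposited table. These decreases were small, and that of FZD6 lay just inside the threshold. FZD3, FZD4 and FZD5 did not pass, and FZD3 was the lowest of the family at 1.38 with ML290 and 1.82 with DMSO (FDR-adjusted p = 0.106) per the authors' deposited table. FZD4 had 27.1 with ML290 and 27.2 with DMSO (FDR-adjusted p = 0.959) per the authors' deposited table. It shares 18.9% of its exon bases with PRSS23 on the opposite strand, which was itself 2.00-fold lower per the authors' deposited table, and whether the counting used strand is not given in the sources used here.

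Per kb of exons the make-up of the Frizzled family differed between the groups. FZD8 held 33.5% of the summed Frizzled level per kb with ML290 and 14.8% with DMSO. FZD2 held 34.2% with ML290 and 46.5% with DMSO, and FZD7 stood at 10.9 per kb with ML290 and 14.2 per kb with DMSO. FZD8 thus stood level with FZD2 in ML290 cultures, whereas FZD2 led the family in DMSO cultures. The summed level was 89.6 per kb with ML290 and 78.9 with DMSO, a ratio of 1.14. These shares come from the group means and carry no error of their own. FZD8 lies on chromosome 10 from 35638249 to 35642278, FZD1 on chromosome 7 from 91264364 to 91271326, FZD7 on chromosome 2 from 202034587 to 202038445 and FZD2 on chromosome 17 from 44557459 to 44559570.

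**Figure D2:**
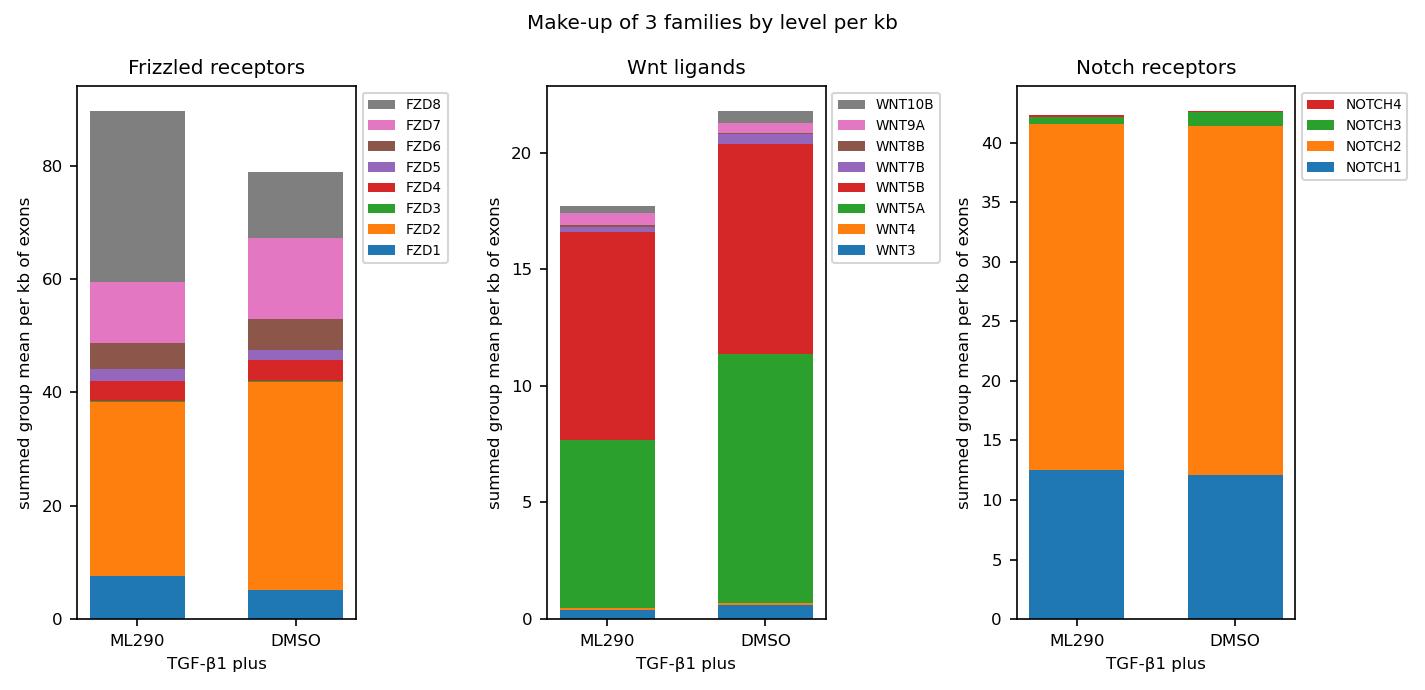
Authors' group means divided by exon length and stacked by gene, for Frizzled receptors, Wnt ligands and Notch receptors, with ML290 left and DMSO right in each panel. The grey FZD8 segment holds 33.5% of the Frizzled bar with ML290 and 14.8% with DMSO, while NOTCH2 holds 68.5% of the Notch receptor bar with ML290 and 68.7% with DMSO.

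The LRP co-receptors did not pass. LRP5 had 47.4 with ML290 and 43.5 with DMSO (FDR-adjusted p = 0.347), and LRP6 had 36.5 with ML290 and 37.2 with DMSO (FDR-adjusted p = 0.76) per the authors' deposited table. ZNRF3, the ligase that removes Frizzled proteins from the cell surface and is itself a Wnt target, had 12.6 with ML290 and 12.5 with DMSO (FDR-adjusted p = 0.953) per the authors' deposited table.

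Of 5 secreted Wnt inhibitors 1 was higher (20.0%, near the 19.5% of all rows) and 0 lower, per the authors' deposited table. SFRP1, which binds Wnt proteins outside the cell, was the most abundant per kb of the Wnt inhibitors, with a mean of 419.8 with ML290 and 392.8 with DMSO (FDR-adjusted p = 0.422) per the authors' deposited table. DKK1, which blocks LRP5 and LRP6, had 83.6 with ML290 and 68.4 with DMSO (FDR-adjusted p = 0.129) per the authors' deposited table. DKK3, a divergent Dickkopf protein, was the sole gene of these 5 past the threshold. It had 169.2 with ML290 and 151.2 with DMSO, 1.12-fold higher (FDR-adjusted p = 0.0279) per the authors' deposited table. DKK2 and SFRP5 were near the floor, with at most about 16 reads in either group. In the wider Wnt list below, 2 other secreted or surface inhibitors had a row, with 0 higher and 1 lower per the authors' deposited table. KREMEN1 had 15.2 with ML290 and 19.8 with DMSO, 1.31-fold lower (FDR-adjusted p = 0.00937) per the authors' deposited table. KREMEN2 had 0.979 with ML290 and 1.56 with DMSO and did not pass (FDR-adjusted p = 0.0858) per the authors' deposited table.

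Inside the cell DVL1 was higher. Dishevelled proteins relay the signal from Frizzled, and DVL1 had 98.4 with ML290 and 62.6 with DMSO, 1.57-fold higher (FDR-adjusted p = 2.3e-05) per the authors' deposited table. DVL2 had 81.5 with ML290 and 73.1 with DMSO (FDR-adjusted p = 0.0789), and DVL3 had 78.9 with ML290 and 80.1 with DMSO (FDR-adjusted p = 0.794) per the authors' deposited table. Per kb DVL1 was the most abundant of the family in both groups, with 48.3% of the summed level with ML290 and 38.5% with DMSO. DVL1 lies on chromosome 1 from 1335276 to 1349350, minus strand. RXFP1 is known to raise cyclic AMP, so the promoters were also searched for the cAMP response element TGACGTCA, which reads the same on both strands. That search was chosen after the values were seen. The 39 member genes with a RefSeq promoter had 49 windows, of which 1 held it (2.04%), that of DVL1. This is near the 1.85% of all 35116 windows of the same length. The window runs from 250 bases before to 50 bases after the RefSeq start, at chr1:1349369-1349668 on the minus strand of GRCh38.p14, and is shown because it is the window of the higher Dishevelled gene, with the element in capitals.
DVL1: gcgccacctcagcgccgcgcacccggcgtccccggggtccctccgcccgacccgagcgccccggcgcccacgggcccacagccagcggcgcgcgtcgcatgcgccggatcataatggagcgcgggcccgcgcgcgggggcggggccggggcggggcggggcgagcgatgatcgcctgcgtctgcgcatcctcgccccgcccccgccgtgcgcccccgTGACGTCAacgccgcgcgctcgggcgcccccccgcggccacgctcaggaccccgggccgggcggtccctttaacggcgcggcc
The element starts at base 218 of this window. A match of letters does not show that a factor binds there.

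The gene of β-catenin was lower, and so were genes of its DNA-binding partners. CTNNB1, which encodes β-catenin, had 180.9 with ML290 and 237.8 with DMSO, 1.31-fold lower (FDR-adjusted p = 3.09e-05) per the authors' deposited table. The TCF and LEF genes encode the DNA-binding partners of β-catenin. Of these, 3 of 4 were lower (75.0%, against 15.6% of all rows) and 0 higher per the authors' deposited table. That share was not tested. With Benjamini-Yekutieli adjustment TCF7 and TCF7L2 did not pass, which left 1 of 4, TCF7L1. TCF7L1, mainly a repressor in the absence of a signal, had 14.7 with ML290 and 20.2 with DMSO, 1.38-fold lower (FDR-adjusted p = 0.00301) per the authors' deposited table. TCF7L2 had 11.7 with ML290 and 14.8 with DMSO, 1.26-fold lower (FDR-adjusted p = 0.00723) per the authors' deposited table. TCF7 had 1.31 with ML290 and 2.08 with DMSO, 1.59-fold lower (FDR-adjusted p = 0.02) per the authors' deposited table. All of these differences were under 2-fold, and the TCF7 means rest on about 100 and 175 reads. TCF7 shares 2.09% of its exon bases with SKP1 on the opposite strand, a gene with means of 83.3 with ML290 and 91.7 with DMSO, and reads of the shared stretch could not be assigned here. LEF1 had 5.26 with ML290 and 6.13 with DMSO (FDR-adjusted p = 0.218) per the authors' deposited table, and its antisense transcript LEF1-AS1 had about 8 reads with ML290 and 12 with DMSO. Per kb the summed TCF and LEF level was 6.17 with ML290 and 8.13 with DMSO, a ratio of 0.76.

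The scaffold genes of the complex that destroys β-catenin, APC, AXIN1 and AXIN2, did not pass. APC had 53.2 with ML290 and 57.1 with DMSO (FDR-adjusted p = 0.307), and AXIN1 had 40.4 with ML290 and 38.4 with DMSO (FDR-adjusted p = 0.435) per the authors' deposited table. AXIN2, a scaffold and a widely used readout of β-catenin signalling, had 3.53 with ML290 and 3.85 with DMSO (FDR-adjusted p = 0.651) per the authors' deposited table. It shares 25.2% of its exon bases with the gene model AC004805.1 on the same strand, and reads of that stretch could not be assigned here. Neither of the feedback genes with a row, AXIN2 and ZNRF3, therefore passed, and RNF43 was not analysed here. TCF7L1 lies on chromosome 2 from 85133410 to 85310388, TCF7L2 on chromosome 10 from 112950250 to 113167678, TCF7 on chromosome 5 from 134114711 to 134151865 and CTNNB1 on chromosome 3 from 41194741 to 41260096.

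**Figure D3:**
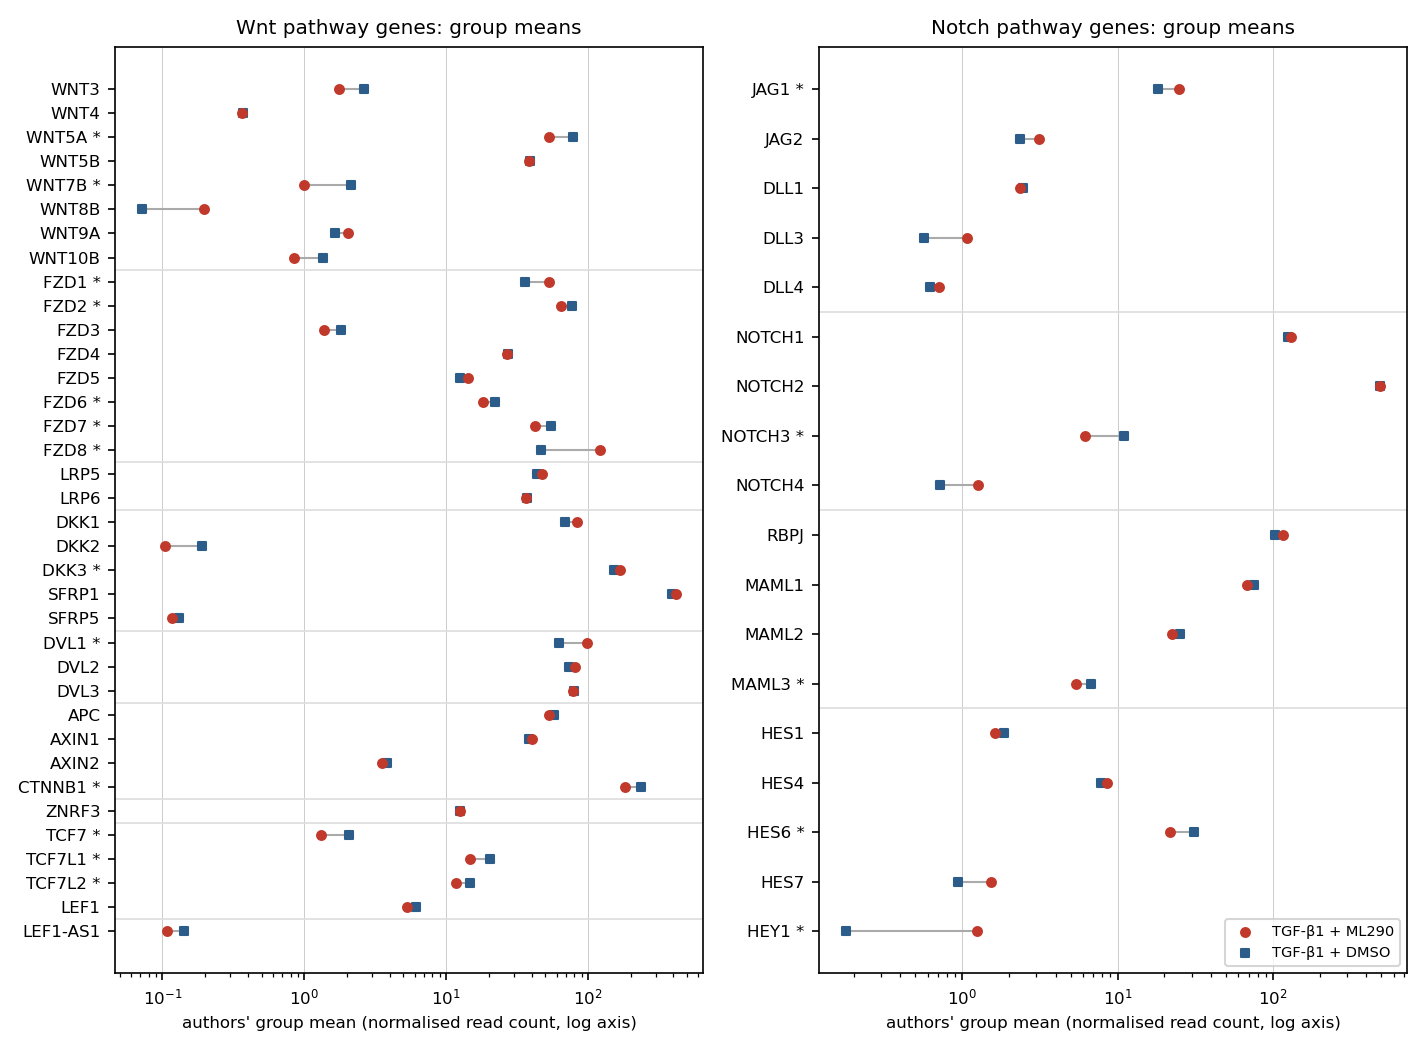
Authors' group mean of each gene on a log axis, Wnt genes left and Notch genes right, red circles for TGF-β1 with ML290 and blue squares for TGF-β1 with DMSO. An asterisk marks an adjusted p under 0.05, and grey lines separate roles. The pair of marks for HEY1 (1.24 with ML290, 0.178 with DMSO) and for FZD8 (121.0 with ML290, 47.0 with DMSO) are far apart, while those for NOTCH2 and WNT5B lie on each other.

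Among Notch ligands JAG1 was higher. JAG1, the ligand of the Jagged type that led the family per kb, had 24.96 with ML290 and 18.2 with DMSO, 1.37-fold higher (FDR-adjusted p = 0.00239) per the authors' deposited table. JAG2 had 3.11 with ML290 and 2.35 with DMSO (FDR-adjusted p = 0.14) per the authors' deposited table. The Delta-type ligands were low, and none passed. DLL3, which acts inside the cell rather than as a surface activator, lay just outside the threshold with 1.07 with ML290 and 0.571 with DMSO (FDR-adjusted p = 0.0582) per the authors' deposited table. Its means correspond to about 82 and 48 reads. DLL1 had 2.37 with ML290 and 2.47 with DMSO (FDR-adjusted p = 0.862), and DLL4 had 0.706 with ML290 and 0.619 with DMSO (FDR-adjusted p = 0.617) per the authors' deposited table. JAG1 lies on chromosome 20 from 10637684 to 10673999.

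The main Notch receptors did not pass, and NOTCH3 was lower. NOTCH2 had 487.3 with ML290 and 492.0 with DMSO (FDR-adjusted p = 0.852) per the authors' deposited table and held 68.5% of the summed receptor level per kb with ML290 and 68.7% with DMSO. Its partial copy NOTCH2NL, whose reads are hard to tell from those of NOTCH2, had 40.9 with ML290 and 36.1 with DMSO (FDR-adjusted p = 0.121) per the authors' deposited table. NOTCH1 had 130.1 with ML290 and 125.6 with DMSO (FDR-adjusted p = 0.629) per the authors' deposited table. NOTCH3, the receptor typical of vascular smooth muscle and pericytes, had 6.15 with ML290 and 11.1 with DMSO, 1.80-fold lower (FDR-adjusted p = 0.000179) per the authors' deposited table. It was a minor receptor here, with 1.5% of the receptor level per kb with ML290 and 2.8% with DMSO. NOTCH4, known from endothelium, had 1.27 with ML290 and 0.715 with DMSO (FDR-adjusted p = 0.0674), about 97 and 60 reads, per the authors' deposited table. NOTCH3 lies on chromosome 19 from 15159038 to 15200981.

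In the nuclear complex, RBPJ, the DNA-binding partner of the Notch tail, had 116.1 with ML290 and 103.1 with DMSO (FDR-adjusted p = 0.124) per the authors' deposited table. MAML3, a Mastermind co-activator, had 5.37 with ML290 and 6.74 with DMSO, 1.26-fold lower (FDR-adjusted p = 0.0493) per the authors' deposited table, the called member closest to the threshold. It shares 252 exon bases with MGST2 on the opposite strand, a gene with means of 2.13 with ML290 and 2.75 with DMSO. MAML1 had 68.5 with ML290 and 75.5 with DMSO (FDR-adjusted p = 0.088), and MAML2 had 22.6 with ML290 and 25.4 with DMSO (FDR-adjusted p = 0.173) per the authors' deposited table. All 3 Mastermind means were thus lower with ML290, but only MAML3 passed.

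The HES and HEY genes encode repressors that Notch switches on in many cell types, and they did not move together. HEY1 had 1.24 with ML290 and 0.178 with DMSO, 6.98-fold higher (FDR-adjusted p = 3.97e-05) per the authors' deposited table. These means stand on about 95 reads with ML290 and 15 with DMSO, so HEY1 was called from a level near the floor in DMSO cultures. Its log2 ratio of 2.80 was 2.27 with a pseudocount of 0.1 and 0.93 with a pseudocount of 1 added to both means. HES6, which in the mouse counteracts HES1 rather than acting as a Notch target, had 21.8 with ML290 and 31.1 with DMSO, 1.43-fold lower (FDR-adjusted p = 0.000109) per the authors' deposited table. HES1, the classical target, was low in both groups, with 1.62 with ML290 and 1.85 with DMSO (FDR-adjusted p = 0.451) per the authors' deposited table. HES4 had 8.61 with ML290 and 7.78 with DMSO (FDR-adjusted p = 0.58), and HES7 had 1.53 with ML290 and 0.933 with DMSO (FDR-adjusted p = 0.144) per the authors' deposited table. HES6 lies on chromosome 2 from 238238267 to 238240662.

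The start regions were also searched for the letters that RBPJ is known to recognise. The core GTGGGAA, searched on both strands, was found in 5 of the 49 member windows (10.2%), those of APC, HES1, HES4, RBPJ and WNT9A, and in 6.25% of all 35116 RefSeq promoter windows. None of these 5 genes passed the threshold. The TCF and LEF core CTTTGAT, also searched on both strands, was found in 1 of the 49 member windows (2.04%), that of RBPJ, and in 2.62% of all windows. The windows below, from 250 bases before to 50 bases after the RefSeq start, set the HES genes that did not pass (HES1, HES4) beside the lower HES6. Capitals mark the RBPJ core. They are chr3:194135898-194136197 on the plus strand for HES1, chr1:1000048-1000347 on the minus strand for HES4 and chr2:238239989-238240288 on the minus strand for HES6, all GRCh38.p14.
HES1: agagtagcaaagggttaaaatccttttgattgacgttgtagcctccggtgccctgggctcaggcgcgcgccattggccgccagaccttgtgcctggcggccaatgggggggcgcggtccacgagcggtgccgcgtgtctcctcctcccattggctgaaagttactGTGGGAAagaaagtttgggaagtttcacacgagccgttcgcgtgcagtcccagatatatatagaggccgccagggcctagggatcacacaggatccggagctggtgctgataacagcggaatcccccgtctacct
HES4: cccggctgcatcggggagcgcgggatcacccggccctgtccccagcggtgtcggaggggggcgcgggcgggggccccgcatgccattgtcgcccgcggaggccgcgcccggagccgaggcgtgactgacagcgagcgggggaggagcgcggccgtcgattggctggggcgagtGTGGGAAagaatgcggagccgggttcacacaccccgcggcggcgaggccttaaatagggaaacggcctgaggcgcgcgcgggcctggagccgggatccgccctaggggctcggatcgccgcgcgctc
HES6: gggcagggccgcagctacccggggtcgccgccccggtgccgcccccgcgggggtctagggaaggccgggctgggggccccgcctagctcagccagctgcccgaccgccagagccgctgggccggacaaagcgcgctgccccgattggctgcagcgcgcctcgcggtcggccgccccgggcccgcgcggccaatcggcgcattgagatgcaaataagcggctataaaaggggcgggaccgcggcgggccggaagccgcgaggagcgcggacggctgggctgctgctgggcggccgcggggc
The core starts at base 166 of the HES1 window and at base 174 of the HES4 window, in both as written, and is followed by the letters agaa in both. The HES6 window does not hold these letters. It lies wholly inside HES6 as GENCODE 29 places that gene, whereas the HES1 and HES4 windows span the GENCODE start, so the windows are not alike in position.

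**Figure D4:**
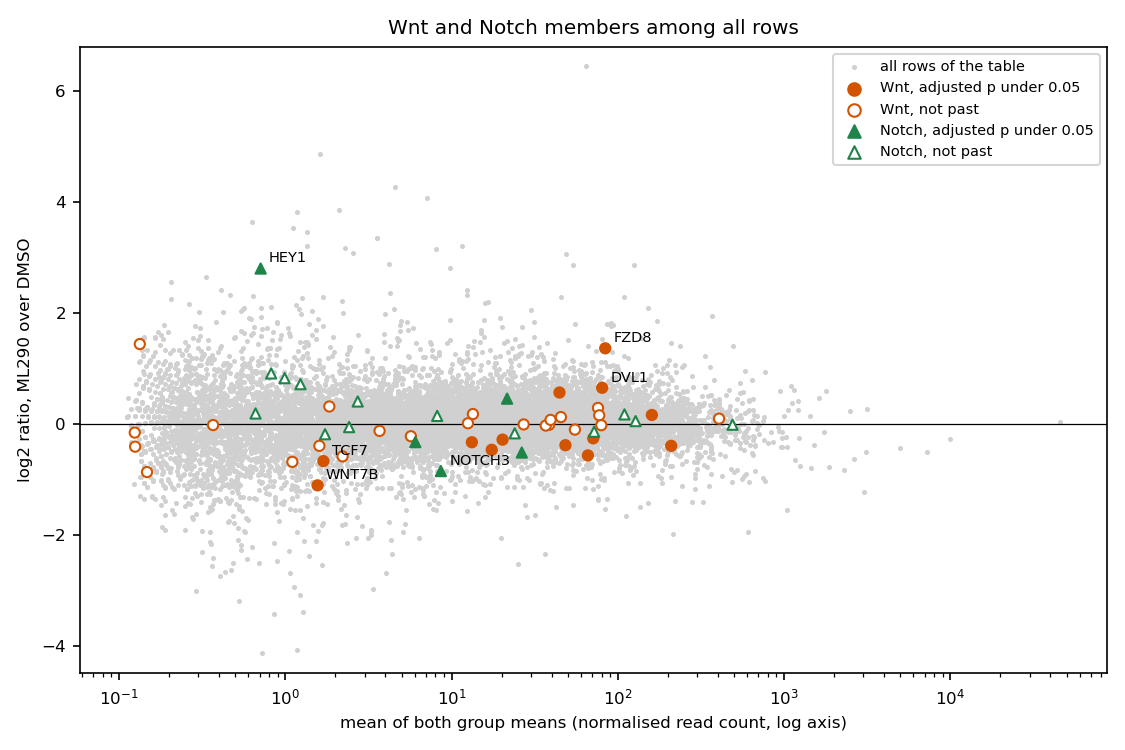
Mean of both group means (log axis) against the log2 ratio, ML290 over DMSO, for all 14870 rows in grey, with Wnt genes as orange circles and Notch genes as green triangles, filled where the adjusted p was under 0.05. HEY1 lies high at a low level, and FZD8 stands out upward at a level near 84.0.

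Other genes of the Wnt route were read from a list of 63 symbols, of which 49 had a row. Of these 28 passed (57.1%, against 35.1% of all rows), 15 higher and 13 lower, per the authors' deposited table, with a median log2 ratio of -0.02. Of the 38 with a mean level of 10 or more, 23 passed (60.5%), against 44.2% of all rows at that level. This list was drawn up with earlier results of these data known, and its share was not tested. By p the leading genes were TLE4, FOSL1, TLE1 and CCND1. TLE proteins are co-repressors of TCF factors, and they split. TLE1 had 59.2 with ML290 and 39.1 with DMSO, 1.51-fold higher (FDR-adjusted p = 1.3e-05), and TLE4 had 59.4 with ML290 and 96.4 with DMSO, 1.62-fold lower (FDR-adjusted p = 6.89e-06) per the authors' deposited table. TLE3 was 1.35-fold higher (FDR-adjusted p = 0.00189) per the authors' deposited table, and TLE2 did not pass. Singles from other roles were PORCN, the enzyme that adds a lipid to Wnt proteins before secretion, 1.21-fold higher (FDR-adjusted p = 0.019), and LGR4, a receptor for R-spondins, 1.29-fold lower (FDR-adjusted p = 0.0212), per the authors' deposited table.

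Of 4 other Wnt receptors on the list 2 were lower and 0 higher, per the authors' deposited table. Among all rows 15.6% were lower and 19.5% higher, per the authors' deposited table. The list was drawn up with earlier results known, and the count among these 4 receptors was not tested. The 2 lower receptors, ROR2 and ROR1, are both known from signalling without β-catenin. ROR2, the receptor tyrosine kinase that binds WNT5A, had 43.3 with ML290 and 62.0 with DMSO, 1.43-fold lower (FDR-adjusted p = 0.00111) per the authors' deposited table. ROR1 had 7.73 with ML290 and 12.4 with DMSO, 1.61-fold lower (FDR-adjusted p = 0.000426) per the authors' deposited table. The receptors RYK and PTK7 did not pass. RYK had 43.0 with ML290 and 41.8 with DMSO (FDR-adjusted p = 0.767) per the authors' deposited table. PTK7 had 162 with ML290 and 182 with DMSO (FDR-adjusted p = 0.0791) per the authors' deposited table. Of 10 planar polarity genes, 3 were lower and 1 higher per the authors' deposited table, 40.0% called, a share near that of all rows. DAAM1, a formin that links Dishevelled to actin, was 1.38-fold lower, DAAM2 2.93-fold lower and the membrane protein VANGL1 1.41-fold lower (FDR-adjusted p = 0.000341, 0.000742 and 0.000163) per the authors' deposited table. The DAAM2 fold rests on low means, 0.628 with ML290 and 1.84 with DMSO. CELSR3, an adhesion receptor of planar polarity, was 1.26-fold higher (FDR-adjusted p = 0.00185) per the authors' deposited table.

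Of 10 destruction complex genes and partners outside the symbol pattern, 5 were higher and 1 lower per the authors' deposited table. Among all rows 19.5% were higher and 15.6% lower, per the authors' deposited table. These 10 genes also belong to the list drawn up with earlier results known, and their share called was not tested. The kinase GSK3A, which marks β-catenin for removal, had 92.5 with ML290 and 76.2 with DMSO, 1.21-fold higher (FDR-adjusted p = 0.00888) per the authors' deposited table. The kinase CSNK1A1 was 1.16-fold and TNKS, which destabilises Axin, 1.24-fold higher (FDR-adjusted p = 0.00688 and 0.00154) per the authors' deposited table. CSNK1E was 1.17-fold and APC2 1.33-fold higher (FDR-adjusted p = 0.0124 and 0.0101) per the authors' deposited table. AMER1, which recruits the complex to the membrane, was 1.30-fold lower (FDR-adjusted p = 0.0269) per the authors' deposited table. GSK3B had 93.7 with ML290 and 83.1 with DMSO (FDR-adjusted p = 0.148) per the authors' deposited table.

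Genes described as β-catenin targets in various cell types went both ways, with 5 of 10 higher and 3 lower per the authors' deposited table. Of all rows, 19.5% were higher and 15.6% lower, per the authors' deposited table. The 10 genes belong to the list drawn up with earlier results known, and their share called was not tested. The cyclin gene CCND1 had 810.3 with ML290 and 467.7 with DMSO, 1.73-fold higher (FDR-adjusted p = 1.65e-05), and the AP-1 gene FOSL1 had 291.7 with ML290 and 153.3 with DMSO, 1.90-fold higher (FDR-adjusted p = 7.02e-06) per the authors' deposited table. MYC had 78.2 with ML290 and 68.4 with DMSO, 1.14-fold higher (FDR-adjusted p = 0.0288) per the authors' deposited table. WISP1 had 1.19 with ML290 and 3.30 with DMSO, 2.77-fold lower (FDR-adjusted p = 0.000693), and BMP4 was 1.99-fold lower (FDR-adjusted p = 6.68e-05) per the authors' deposited table. All of these genes also answer to other pathways. NKD1, a feedback inhibitor, had 0.171 with ML290 and 0.108 with DMSO (FDR-adjusted p = 0.702) per the authors' deposited table, and NKD2 had no row.

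Other genes of the Notch route were read from a list of 39 symbols, of which 36 had a row. Of these 10 passed, 8 higher and 2 lower, per the authors' deposited table, with a median log2 ratio of 0.05. That is 27.8%, below the 35.1% of all rows. By direction it is 22.2% higher, near the 19.5% of all rows, and 5.6% lower, against 15.6% of all rows. Of the 28 with a mean level of 10 or more, 8 passed (28.6%), against 44.2% of all rows at that level. This list too was drawn up with earlier results known, and its shares were not tested. DNER, a transmembrane protein described as a Notch ligand in the nervous system, had 35.6 with ML290 and 12.3 with DMSO, 2.89-fold higher (FDR-adjusted p = 1.08e-08) per the authors' deposited table. Fringe enzymes, whose sugars tune which ligand a receptor answers, were called in opposite directions. LFNG had 2.66 with ML290 and 5.93 with DMSO, 2.23-fold lower (FDR-adjusted p = 6.87e-05) per the authors' deposited table. RFNG, at a higher level, had 33.8 with ML290 and 26.6 with DMSO, 1.27-fold higher (FDR-adjusted p = 0.00892) per the authors' deposited table.

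Among ligand endocytosis genes, MIB2, a ligase that lets ligands pull on receptors, was 1.61-fold higher (FDR-adjusted p = 2.9e-05) per the authors' deposited table. Its relative MIB1 had 50.7 with ML290 and 58.0 with DMSO and did not pass (FDR-adjusted p = 0.0617) per the authors' deposited table. Of 9 receptor processing genes 2 were higher (22.2%, near the 19.5% of all rows), the protease ADAM17 1.46-fold and the γ-secretase subunit PSEN2 1.40-fold (FDR-adjusted p = 8.46e-05 and 0.00255), per the authors' deposited table. ADAM10, the main protease of ligand-bound receptors, had 89.2 with ML290 and 98.8 with DMSO (FDR-adjusted p = 0.151) per the authors' deposited table. The repressor BHLHE41, related to the HES proteins, had 19.6 with ML290 and 7.44 with DMSO, 2.63-fold higher (FDR-adjusted p = 4.34e-06) per the authors' deposited table. NRARP, a feedback target of Notch in many cells, had 0.458 with ML290 and 0.274 with DMSO (FDR-adjusted p = 0.401) per the authors' deposited table.

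**Figure D5:**
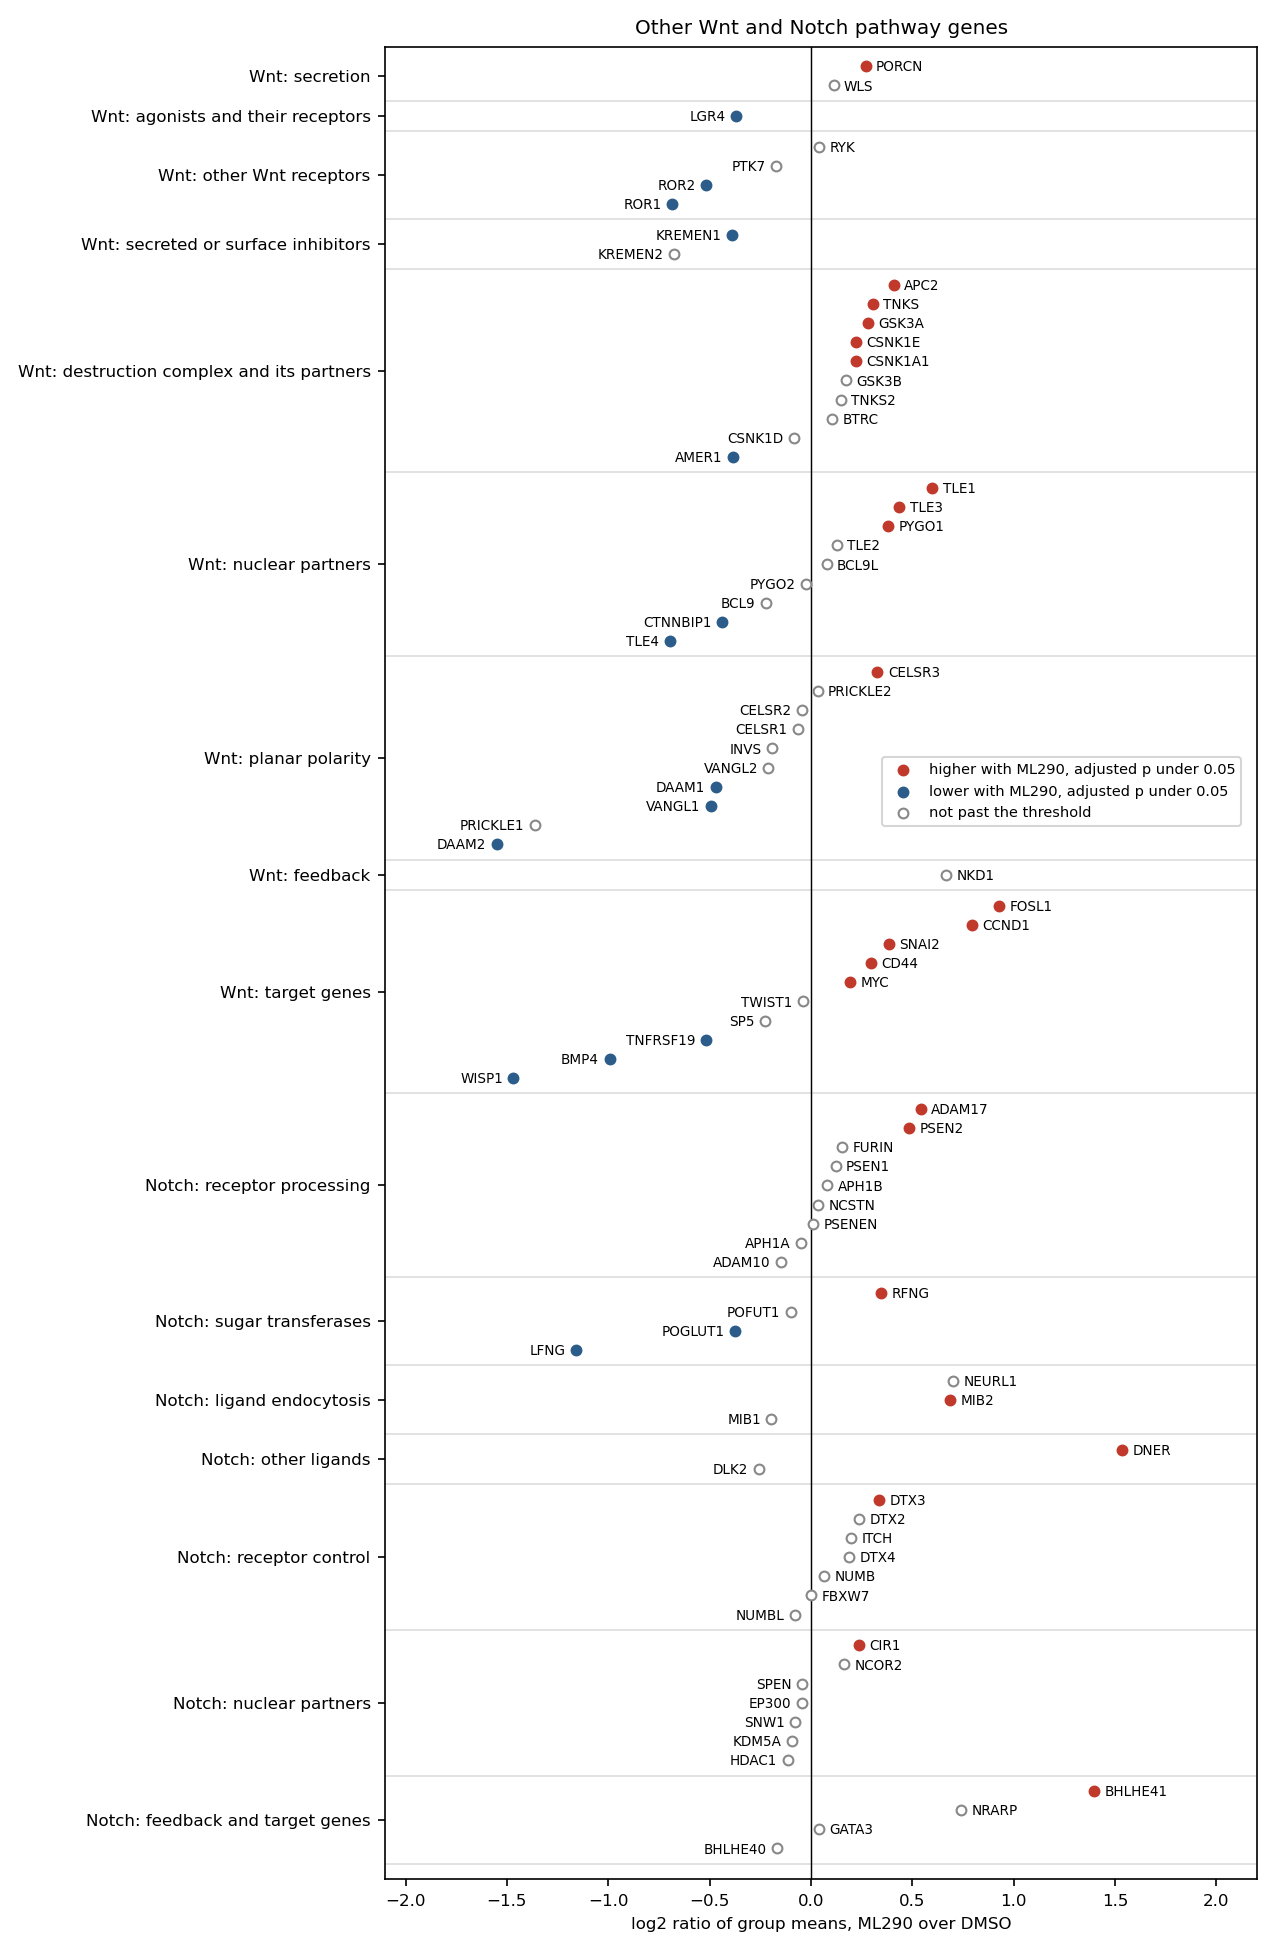
Log2 ratio of the authors' group means, ML290 over DMSO, for the other genes of the Wnt and Notch routes grouped by role. Filled red points were higher and filled blue points lower at an adjusted p under 0.05, and open points did not pass. ROR1, ROR2, DAAM1, DAAM2 and VANGL1 lie left of 0, and DNER and BHLHE41 lie farthest right.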

How the data were processed

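Messenger RNA of 8 LX-2 cultures was sequenced, 4 with TGF-β1 and ML290 and 4 with TGF-β1 and DMSO. Per the submitters' processing notes, STAR and Partek were used with GRCh38. Their versions and roles are not stated there. How reads were counted, filtered, normalised and tested is not given in the sources used here. A single table deposited by the authors was used. Per the file headers, the authors made its signal values as least-squares means of each group and a total, apparently normalised counts. Its ratio and signed fold, deposited by the authors, are ML290 over DMSO. Its p-value and step-up adjusted p-value are likewise the authors' deposited values. Benjamini-Hochberg adjustment recomputed over the 14870 rows differed from the deposited adjusted p by at most 2.8e-05.

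Members were matched by symbol, and all 54 matched GENCODE 29 on GRCh38, whose merged exons gave lengths and coordinates. A member counted as called at an adjusted p under 0.05. Reads behind a mean came from the step common to values under 0.3. Within 0.15 of a whole read lay 84.1% of 778 such ML290 values and 95.1% of 761 DMSO values. Named were all called members, the most abundant and the nearest to the threshold in each role, and from the wider lists the 4 with the smallest adjusted p and 6 output genes. The remaining genes of the wider lists, NOTCH2NL, SKP1, MGST2 and PRSS23 were named after their values were seen. The members and lists were chosen with earlier results of these data known. Alternatives were other adjustments, thresholds, level filters, pseudocounts and centring. The adjustment and the step search were tested on simulated data. Tools were matplotlib 3.10.9, scipy 1.17.1, pandas 2.3.3, numpy 2.4.6 and Python 3.11.15.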

Additional observations from a re-analysis of the deposited data

How the results depend on the processing

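Counts of called genes are given in the order Wnt higher, Wnt lower, Notch higher, Notch lower, reported as 4, 9, 2 and 3. A fold of at least 1.5 besides the adjusted p left 2, 2, 1 and 1, and 10.8% of all rows. Benjamini-Yekutieli adjustment left 19.1% of all rows called and 4 Wnt genes lower, losing WNT7B, FZD2, FZD6, TCF7 and TCF7L2, as well as DKK3 and MAML3. A mean level of at least 1, with 40.4% of the rows left called, left 1 Notch gene higher, because HEY1 falls below it. A level of at least 10, with 46.2% of the rows left called after adjusting again over them, left 1 higher and 1 lower. An unadjusted p under 0.05 called 44.0% of all rows and gave 4 Notch genes higher. Under an adjusted p of 0.01, which called 23% of all rows, FZD6, DKK3, TCF7 and MAML3 no longer passed. The Wnt median log2 ratio of -0.07 was -0.06 and -0.03 with pseudocounts of 0.1 and 1, -0.03 and -0.01 at levels of at least 1 and 10, -0.08 after centring on all rows and -0.03 without LEF1-AS1. The Notch median of 0.10 was 0.06 with a pseudocount of 1 and 0.08 after centring, and it turned to -0.04 and -0.01 at levels of at least 1 and 10, where the low genes with higher means are left out. Centring also turned ZNRF3 to -0.007. No paired analysis was possible because the table holds group means only, and leaving out each replicate was not run for the same reason.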

Other observations

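At the floor of the table, 9 of the 54 Wnt and Notch genes had a mean level under 1, and 1 of them, HEY1, was called, per the authors' deposited table. The other 8, WNT4, WNT8B, DKK2, SFRP5, LEF1-AS1, DLL3, DLL4 and NOTCH4, had between about 6 and 97 reads per group.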
